A study of Caenorhabditis elegans with 12 samples.

Results

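The H3K9 methylation and heterochromatin genes followed here were *met-2*, *set-25*, *set-32*, *hpl-1*, *hpl-2*, *lin-13*, *lin-61* and *let-418*, 8 of the 45461 genes that were counted in dissected *Caenorhabditis elegans* gonads. They were chosen by gene name, a rule that uses no measured level, and all 8 passed the filter on low counts, *hpl-1* only through groups in which it was higher. Methylation of lysine 9 on histone H3 marks heterochromatin, the part of the genome in which repeats, transposons and tissue-specific genes are kept silent. In worms MET-2 places most of the mono- and dimethyl mark, SET-25 adds the trimethyl mark, and SET-32 is a related SET domain protein that acts with nuclear small RNAs in the germline. Chromodomain proteins of the HP1 family (HPL-1 and HPL-2), the MBT repeat protein LIN-61 and the zinc finger protein LIN-13 bind or help to bind the mark, and LET-418 is a Mi-2 chromatin remodeller found with some of these proteins.

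RNA was sequenced from gonads of worms mutant for SET-2, the catalytic subunit of the SET1/COMPASS complex that methylates H3K4, whose homozygous descendants lose fertility over generations at 25 °C. The P0 gonads came from *set-2(bn129)*/*qC1* heterozygous hermaphrodites, which carry 1 mutant allele over a balancer of chromosome III. The F2 fertile, F4 fertile and F4 sterile gonads came from *set-2(bn129)* homozygous hermaphrodites descended from such mothers, and every group was dissected on day 1 of adulthood after growth at 25 °C. A fertile worm was one that had produced live offspring, and a sterile F4 worm was one whose uterus showed no embryos. Each group had 3 libraries, each made from pooled gonad arms of 1 lineage that were cut at the bend. P0 is thus a heterozygote and not a wild type, and no library of any group came from worms without the *bn129* allele. The heterozygous strain was kept at a lower temperature and moved to 25 °C 1 generation before the experiments. The homozygous groups thus also had more generations at 25 °C, which in comparisons with P0 cannot be told apart from the loss of SET-2 for any gene. *met-2*, *set-25*, *hpl-2* and *lin-13* lie on chromosome III, so in comparisons with P0 a difference between the balancer and its homolog and the loss of SET-2 cannot be told apart for these 4 genes. Because the libraries are bulk gonads, fewer cells of a type and less RNA per cell cannot be told apart either.

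The libraries held between 3456068 and 10335794 counts on genes. Levels are given as CPM (counts scaled to library size, with edgeR's TMM factors), and a gene was called changed when its adjusted p in edgeR's quasi-likelihood test was under 0.05 over the 8746 genes tested. The mutated gene, *set-2*, was at 132 to 135 CPM in F4 sterile libraries, against 186 to 197 CPM in P0, and it fell in F2 fertile, F4 fertile and F4 sterile gonads alike (adjusted p = 0.00421, 0.000132 and 8.36e-05 in edgeR). Markers of germ cells and oocytes were found in every group with none of them at 0. The summed level of the 8 germ cell markers was 2578 to 2764 CPM in F4 sterile and 3032 to 3308 CPM in F4 fertile libraries, against 3862 to 4097 CPM in P0, and 8 of 8 fell in F4 sterile gonads, as did 3 of 7 oocyte markers. The 6 neuronal markers summed to 14.3 to 37.1 CPM in F4 sterile libraries, against 3.58 to 4.92 CPM in P0, and 3 of the 3 that could be tested rose. Summed intestinal markers spread from 1032 to 5806 CPM in F4 sterile libraries, against 3242 to 4160 CPM in P0. The library names carried 3 prefixes (SSAK006, SSKK007 and SSAK010) that cut across the groups, and no P0 or F2 library had the first of them.

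Divided by exon length, so that genes can be compared with each other, the 8 levels spread over more than an order of magnitude. In P0 the order was *let-418* (123 ± 2.24 CPM per kb, SD, n = 3), *lin-13* (103 ± 1.15), *set-25* (99.7 ± 2.13), *met-2* (76.6 ± 6.62), *hpl-2* (69.2 ± 0.794), *lin-61* (57.3 ± 4.93), *set-32* (31.6 ± 2.16) and *hpl-1* (2.12 ± 1.94). No neighbours in that P0 order had overlapping ranges over the 3 libraries. *let-418* stayed at the head and *set-32* and *hpl-1* at the foot in all 4 groups. The middle of the order moved, since *set-25* overlapped with *lin-13* in F2 fertile and F4 fertile gonads but was at 73.1 ± 6.34 CPM per kb in F4 sterile gonads, where it overlapped with *hpl-2* (69.6 ± 11.1) and was no longer near *lin-13* (93.3 ± 3.11).

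**Figure D1:**
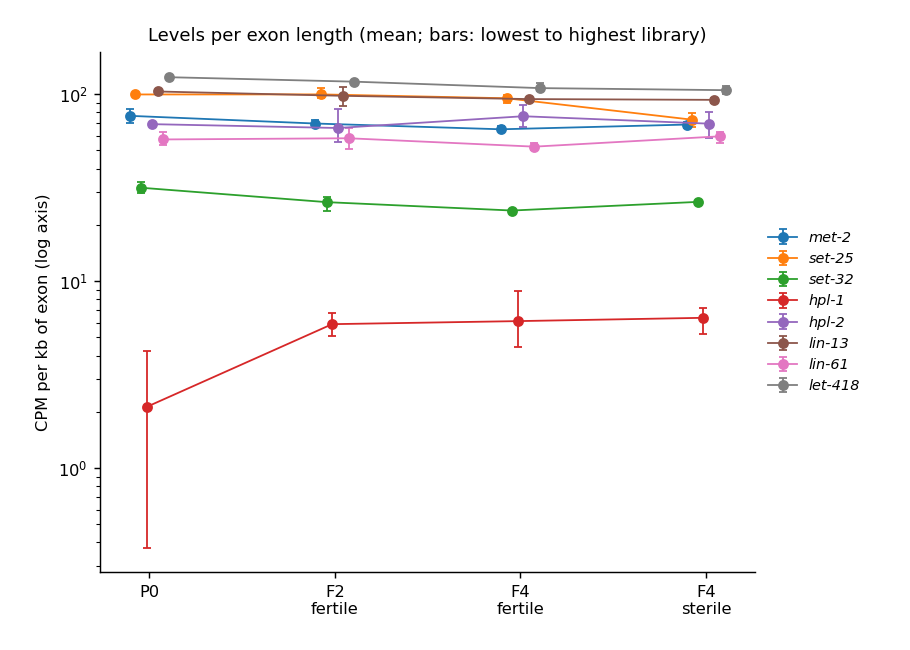
CPM per kb of exon on a log axis for the 8 genes in the 4 groups, with points for means of 3 libraries and bars from the lowest to the highest library. *hpl-1* sits at 6.36 in F4 sterile gonads and at 2.12 in P0, far below the other 7, and *set-25* sits at 73.1 in F4 sterile gonads, against 99.7 in P0.

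*set-25*, which encodes the enzyme for H3K9 trimethylation, is on the minus strand of chromosome III (WS220, chrIII:13283791-13292984). It had 285, 279 and 273 CPM in P0 libraries, 266, 269 and 303 CPM in F2 fertile, 250.1, 272 and 277 CPM in F4 fertile, and 205, 187 and 222 CPM in F4 sterile libraries. The 3 sterile libraries were the lowest of all 12 and did not overlap with any fertile or P0 library, whereas the F2 and F4 fertile libraries overlapped with P0. Of all genes tested, 22.1% had an F4 sterile range below that of P0, 14.6% below that of F2 fertile and 7.67% below that of F4 fertile gonads. The gene fell by 26.8% in F4 sterile gonads relative to P0 (log2 fold change -0.45 ± 0.08, SE, adjusted p = 0.000943 in edgeR). Its fold changes were -0.0003 in F2 fertile and -0.07 in F4 fertile gonads on the log2 scale, and neither passed the test (adjusted p = 0.999 and 0.607 in edgeR). Against their own generation the sterile gonads were lower too, with a log2 fold change of -0.38 ± 0.08 relative to F4 fertile gonads (adjusted p = 0.0318 in edgeR), and relative to F2 fertile gonads it was -0.45 ± 0.08 (adjusted p = 0.00431). Both of these are comparisons between homozygotes, and neither side carries the balancer chromosome.

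Within library name prefixes the difference between F4 sterile and P0 was -0.61 for SSAK010 (1 library against 1) and -0.31 for SSKK007 (1 against 2) in mean log2(CPM + 1), and that between F4 sterile and F4 fertile was -0.29, -0.54 and -0.32 within SSAK006, SSAK010 and SSKK007. The comparisons with P0 and F2 were called in all 12 fits that left out a library. The call against F4 fertile was lost without F4 fertile replicate 1 (-0.43, adjusted p = 0.067), replicate 2 (-0.37, 0.106) or replicate 3 (-0.40, 0.118), without F4 sterile replicate 2 (-0.35, 0.143), and with only the 6 samples of these groups (-0.41, 0.142). The 7 oocyte markers had median log2 fold changes relative to P0 of 0.04 in F2 fertile, 0.06 in F4 fertile gonads and -0.34 in F4 sterile gonads, and those of F4 sterile gonads were -0.38 relative to F4 fertile and -0.38 relative to F2 fertile gonads. The medians of the 8 germ cell markers relative to P0 were -0.14 in F2 fertile gonads (2 of 8 lower), -0.34 in F4 fertile gonads (5 of 8 lower), where *set-25* was not called, and -0.62 in F4 sterile gonads (8 of 8 lower), and that of F4 sterile relative to F4 fertile gonads was -0.19. The part of either list in the *set-25* value was not tested. *set-25* overlaps *unc-64*, a neuronal gene on the other strand, which had 3 to 130 counts in any library where *set-25* had 936 to 2879. The sources used here do not give the strand setting of the counting.

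*met-2*, which encodes the SETDB1-like enzyme for mono- and dimethylation, is on the plus strand of the same chromosome (chrIII:8375226-8380777). The gene had 291, 345 and 313 CPM in P0 libraries, 302, 286 and 275 CPM in F2 fertile, 264, 263 and 278 CPM in F4 fertile, and 274, 284 and 294 CPM in F4 sterile libraries. The F4 fertile range lay below that of P0, as it did for 19.1% of all genes tested, and the sterile gonads overlapped with both. The gene had its highest values in P0 and its lowest in F4 fertile gonads. It fell by 15.2% in F4 fertile gonads relative to P0 (log2 fold change -0.24 ± 0.08, adjusted p = 0.046 in edgeR), and it did not pass in F2 fertile (-0.13 ± 0.08) or F4 sterile gonads (-0.15 ± 0.08). The F4 fertile call sat close to the threshold. With the replicate number as a block the adjusted p was 0.0525 (log2 fold change -0.24), with the library name prefix as a covariate it was 0.0773, and the within-prefix differences were -0.15 for SSAK010 and -0.24 for SSKK007. It was lost without F2 fertile replicate 2 (-0.24, adjusted p = 0.0648), F4 fertile replicate 1 (-0.23, 0.139), F4 fertile replicate 2 (-0.22, 0.151), F4 sterile replicate 3 (-0.24, 0.0562), P0 replicate 2 (-0.22, 0.0994) or P0 replicate 3 (-0.29, 0.063). The F4 sterile value passed without F2 fertile replicate 3 (-0.25), F4 fertile replicate 3 (-0.25) or P0 replicate 1 (-0.31, lowest adjusted p = 0.0112). Neither of the fertile libraries belongs to this comparison, and without them other genes shifted downward as well, as given below.

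*set-32* is on the plus strand of chromosome I (chrI:9519234-9521265) and is the least abundant of the 3 SET domain genes. It had 56.2, 49.2 and 51.3 CPM in P0 libraries, 46.3, 45.6 and 39.3 CPM in F2 fertile, 39.0, 39.9 and 39.5 CPM in F4 fertile, and 44.2, 44.2 and 43.3 CPM in F4 sterile libraries. All 9 libraries of homozygous gonads lay below all 3 of P0, and the F4 fertile and the F4 sterile libraries each spread over less than 1 CPM. Of all genes tested, 10.7% (F2 fertile), 19.1% (F4 fertile) and 22.1% (F4 sterile) had ranges below that of P0. The gene fell by 24.6% in F4 fertile gonads relative to P0 (log2 fold change -0.41 ± 0.11, adjusted p = 0.016 in edgeR). The log2 fold changes of F2 fertile and F4 sterile gonads, -0.26 ± 0.10 and -0.26 ± 0.10, missed the threshold (adjusted p = 0.158 and 0.0643). The F4 sterile value passed with RLE size factors (adjusted p = 0.0304), in DESeq2 (0.0484), with the prefix covariate (0.0478), and without F2 fertile replicate 3, F4 fertile replicate 3, F4 sterile replicate 2, P0 replicate 2 or P0 replicate 3 (lowest adjusted p = 0.0138). Leaving out F4 fertile replicate 1 (-0.40, adjusted p = 0.0652) or replicate 2 (-0.42, 0.0556) ended the F4 fertile call. Its within-prefix differences were -0.48 for SSAK010 and -0.34 for SSKK007, and as the ranges did not overlap, both had to be negative.

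**Figure D2:**
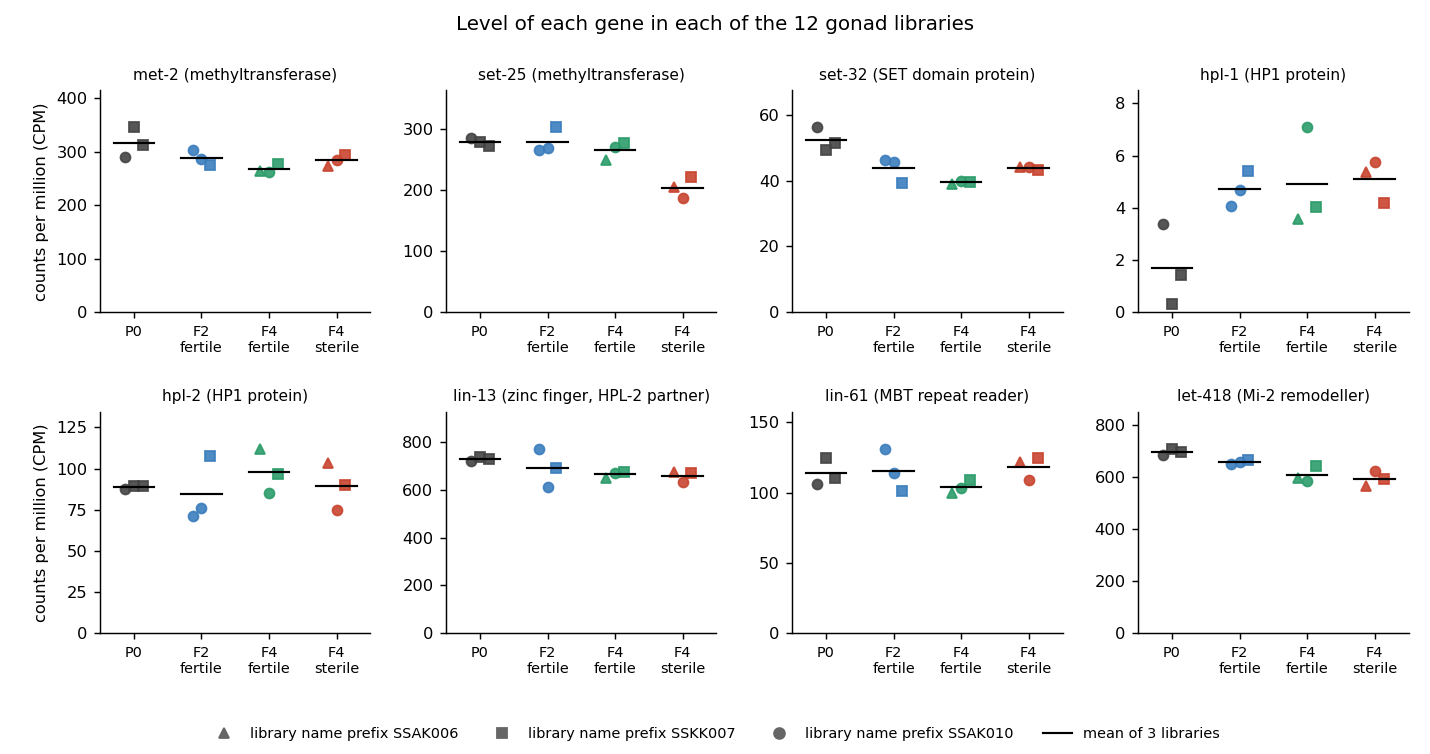
CPM of each of the 8 genes in each of the 12 libraries, by group, with a linear axis from 0 in every panel, symbols for the library name prefix and a black line for the mean of 3 libraries. The F4 sterile points of *set-25* (187 to 222 CPM) lie below every other point in that panel, and the P0 points of *hpl-1* (0.298 to 3.37 CPM) lie below all those of the homozygous groups.

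*hpl-1* is X-linked (chrX:13245321-13246975, plus strand) and encodes an HP1 protein. It was close to the limit of detection, with 31 counts in all 3 P0 libraries together, 90 in F2 fertile, 111 in F4 fertile and 108 in the F4 sterile libraries. Its levels were 3.37, 0.298 and 1.44 CPM in P0 libraries, 4.08, 4.69 and 5.39 CPM in F2 fertile, 3.58, 7.08 and 4.05 CPM in F4 fertile, and 5.37, 5.77 and 4.18 CPM in F4 sterile libraries. Each homozygous library was above each P0 library, although P0 replicate 1, at 24 counts, came close to the lowest of them and P0 replicate 2 held a single count. Of all genes tested, 21.1% (F2 fertile), 25.4% (F4 fertile) and 29.7% (F4 sterile) had ranges above that of P0. The filter on low counts asks for enough counts in as many libraries as a group holds. With 24, 1 and 6 counts in P0, *hpl-1* passed it only through homozygous libraries, where it was higher. Its test and these shares thus rest on a set of genes filtered in this way. The gene rose in F4 sterile gonads relative to P0, by a log2 fold change of 1.43 ± 0.50 (adjusted p = 0.0349 in edgeR). Similar log2 fold changes of 1.30 ± 0.51 in F2 fertile and 1.39 ± 0.50 in F4 fertile gonads missed the threshold (adjusted p = 0.141 and 0.0668), and no comparison among the 3 homozygous groups passed (log2 fold changes of 0.03 to 0.13).

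The size of the *hpl-1* change depended on single libraries. Over the 12 fits that left out a library, the log2 fold change ran from 0.85 to 2.27 in F2 fertile and from 0.95 to 2.37 in F4 fertile gonads. Without P0 replicate 2 it was 0.94 in F4 sterile gonads (adjusted p = 0.106 in edgeR). Without P0 replicate 1 the log2 fold change was 2.27 in F2 fertile (adjusted p = 0.0381 in edgeR), 2.37 in F4 fertile gonads (0.0165) and 2.37 in F4 sterile gonads (0.00636). With all libraries the F4 fertile value passed in DESeq2 (0.0477) and with the prefix covariate (0.0408). Within prefixes the F4 sterile difference in mean log2(CPM + 1) was 0.63 for SSAK010, which holds P0 replicate 1, and 1.54 for SSKK007. The F4 sterile call was lost without any of 6 libraries (F2 fertile replicate 3, F4 fertile replicate 3, F4 sterile replicates 1 and 2, P0 replicates 2 and 3), with log2 fold changes of 0.94 to 2.37 and adjusted p of 0.00636 to 0.122 over all 12 such fits, and in the fit of the 6 samples alone (adjusted p = 0.0824). Of the 971 X-linked genes tested, 30.3% were called higher in F2 fertile, 43.2% in F4 fertile gonads and 73.8% in F4 sterile gonads relative to P0. Most of the X-linked genes tested were thus called higher in F4 sterile gonads. Genes too low in every group were not tested, and genes too low in P0 entered only through homozygous libraries, so these shares do not describe the whole chromosome. The summed neuronal markers were also above P0, at 6.07 to 8.99 CPM in F2 fertile and 5.72 to 10.6 CPM in F4 fertile libraries beside the F4 sterile values given above, and their part in the *hpl-1* value was not tested.

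*hpl-2*, the HP1 gene with the main germline role, is on the minus strand of chromosome III (chrIII:10752164-10755424). Its levels were 87.8, 89.8 and 89.2 CPM in P0 libraries, 71.0, 76.1 and 107 CPM in F2 fertile, 112, 85.4 and 96.6 CPM in F4 fertile, and 104, 75.1 and 89.9 CPM in F4 sterile libraries. The P0 libraries were nearly equal while each homozygous group scattered on both sides of them. No comparison with P0 passed the test, and the log2 fold changes were -0.08 ± 0.16 in F2 fertile, 0.14 ± 0.16 in F4 fertile gonads and 0.01 ± 0.16 in F4 sterile gonads (adjusted p = 0.849, 0.575 and 0.977 in edgeR). Apart from *hpl-1*, no other of the 8 genes had errors as large as these.

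*lin-13* codes for the zinc finger protein that recruits HPL-2 to chromatin and is on the minus strand of chromosome III (chrIII:7700069-7709407). Libraries of P0 had 722, 738 and 727 CPM of it, those of F2 fertile gonads 772, 613 and 690 CPM, those of F4 fertile gonads 651, 670 and 672 CPM, and those of F4 sterile gonads 672, 633 and 669 CPM. Both F4 groups lay entirely below P0, as did 19.1% (F4 fertile) and 22.1% (F4 sterile) of all genes tested. The log2 fold changes of -0.13 ± 0.09 in F4 fertile gonads and -0.15 ± 0.09 in F4 sterile gonads did not pass the test (adjusted p = 0.294 and 0.184 in edgeR). The F4 sterile value passed without F2 fertile replicate 3 (-0.24, adjusted p = 0.0404) or F4 fertile replicate 3 (-0.24, 0.0431). In both of these fits the log2 fold change itself moved from -0.15, although neither library left out belongs to this comparison. Why it moved was not tested. In the 6 other settings the F4 sterile value was called 0 times (lowest adjusted p = 0.0632).

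*lin-61*, the MBT repeat gene on the minus strand of chromosome I (chrI:7248826-7251407), showed no group apart from another. P0 libraries had 106, 125 and 110 CPM of it, F2 fertile 131, 114 and 102 CPM, F4 fertile 99.9, 104 and 109 CPM, and F4 sterile 121, 109 and 125 CPM. The groups overlapped in every pair, and the log2 fold changes relative to P0 were 0.03 ± 0.10 in F2 fertile, -0.13 ± 0.10 in F4 fertile gonads and 0.06 ± 0.10 in F4 sterile gonads (adjusted p = 0.916, 0.419 and 0.689 in edgeR). Over the 6 other settings its F2 fertile value ran from -0.03 to 0.04 and its F4 sterile value from -0.03 to 0.07, so neither had a settled sign.

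*let-418*, a Mi-2 remodeller gene, is on the plus strand of chromosome V (chrV:5826816-5832844). Its libraries had 685, 711 and 697 CPM in P0, 652, 661 and 667 CPM in F2 fertile, 599, 585 and 646 CPM in F4 fertile, and 566, 626 and 592 CPM in F4 sterile gonads. The ranges of all 3 homozygous groups lay below that of P0, and those of both F4 groups lay below that of F2 fertile gonads as well. Of all genes tested, 10.7% (F2 fertile), 19.1% (F4 fertile) and 22.1% (F4 sterile) had ranges below P0. Ranges below F2 fertile gonads were found for 8.79% (F4 fertile) and 14.6% (F4 sterile) of them. The gene fell by 14.7% in F4 sterile gonads relative to P0 (log2 fold change -0.23 ± 0.07, adjusted p = 0.0225 in edgeR). Fold changes of -0.08 ± 0.07 in F2 fertile and -0.19 ± 0.07 in F4 fertile gonads on the log2 scale missed the threshold (adjusted p = 0.598 and 0.079), though the F4 fertile one passed in DESeq2 (0.0235) and without F2 fertile replicate 3, F4 fertile replicate 3 or F4 sterile replicate 2 (lowest adjusted p = 0.0308). The F4 sterile call was lost in the fit of the 6 samples alone (adjusted p = 0.0676) and without F4 sterile replicate 1 (log2 fold change -0.20, adjusted p = 0.0646). Within prefixes the F4 sterile difference was -0.13 for SSAK010 and -0.25 for SSKK007.

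Counted as a group, 0 of the 8 genes were called in F2 fertile gonads relative to P0 by edgeR, where 7.60% of all tested genes were called higher and 1.33% lower. An unadjusted p under 0.05 was reached by 2 of the 8 (*set-32* and *hpl-1*), and DESeq2 called 0. In F4 fertile gonads 2 were called lower (*met-2* and *set-32*), against 7.42% lower and 13.7% higher among all genes. DESeq2 called 3 lower and 1 higher there, against 9.66% lower and 13.1% higher among all genes with an adjusted p in DESeq2. In F4 sterile gonads 2 were called lower (*set-25* and *let-418*) and 1 higher (*hpl-1*), against 16.8% lower and 26.4% higher among all genes. DESeq2 called 3 lower and 1 higher there, against 19.3% lower and 24.6% higher. By edgeR the share of members was near the background in F4 sterile gonads, and in F4 fertile gonads the share called lower was above it by less than 2 genes. The median log2 fold change of the 8 was -0.08, -0.13 and -0.15 in F2 fertile, F4 fertile and F4 sterile gonads, against 0.04, 0.04 and 0.06 over all genes tested. All 3 comparisons share the P0 libraries.

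**Figure D3:**
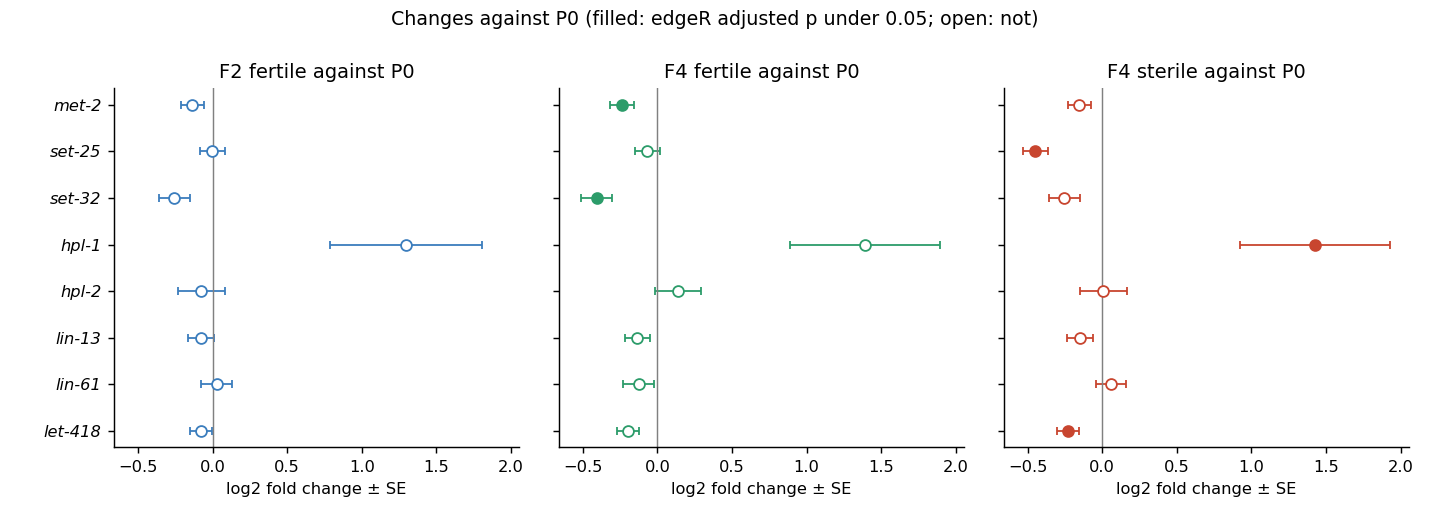
Log2 fold change of each of the 8 genes against P0 in F2 fertile, F4 fertile and F4 sterile gonads, with bars of 1 SE from the edgeR fit, filled where the adjusted p was under 0.05. No point is filled for F2, *met-2* and *set-32* are filled and negative for F4 fertile, and *set-25* and *let-418* (negative) and *hpl-1* (1.43) are filled for F4 sterile gonads.

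Between later groups *set-25* was the only one of the 8 to be called. In F4 sterile relative to F4 fertile gonads it was the 1 called lower, against 0.434% lower and 2.85% higher among all genes, and in F4 sterile relative to F2 fertile gonads it was again the 1 called lower, against 7.79% lower and 11.2% higher. In F4 fertile relative to F2 fertile gonads 0 of the 8 were called by edgeR, with 0 at an unadjusted p under 0.05 and 0 in DESeq2, and among all genes 0.0114% were called higher and 0% lower. For *met-2* and *set-32* the F4 sterile values were 6.01% and 11.2% above those of F4 fertile gonads, and neither passed (adjusted p = 0.597 and 0.454 in edgeR), although the F4 sterile range of *set-32* lay above the F4 fertile one, as it did for 14.2% of all genes.

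Ratios within a library, which need no scaling between libraries, were taken for both pairs of related enzymes and readers. *set-25* had 98.0%, 80.8% and 87.2% as many counts as *met-2* in P0 libraries, 87.9%, 93.9% and 110.4% in F2 fertile, 94.7%, 103% and 99.8% in F4 fertile, and 74.8%, 65.7% and 75.4% in F4 sterile libraries. The F4 sterile ratios were all below the others. Their mean log2 ratio differed from that of P0 by -0.30 (exact two-sided permutation p = 0.1, adjusted p = 0.2 over 6 comparisons), and 0.1 is the smallest p that 3 libraries against 3 can give. The differences of F2 fertile and F4 fertile gonads from P0 were 0.13 and 0.17 (exact permutation p = 0.4 and 0.2). *hpl-1* had 3.84%, 0.332% and 1.61% as many counts as *hpl-2* in P0 libraries, 5.02% to 6.16% in F2 fertile, 3.19% to 8.29% in F4 fertile and 4.65% to 7.68% in F4 sterile libraries. The mean log2 ratios were above P0 by 1.93 in F2 fertile, 1.70 in F4 fertile gonads and 1.94 in F4 sterile gonads (exact permutation p = 0.1, 0.2 and 0.1). Without P0 replicate 2, which held a single *hpl-1* count, they were above P0 by 1.13, 0.91 and 1.15.

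**Figure D4:**
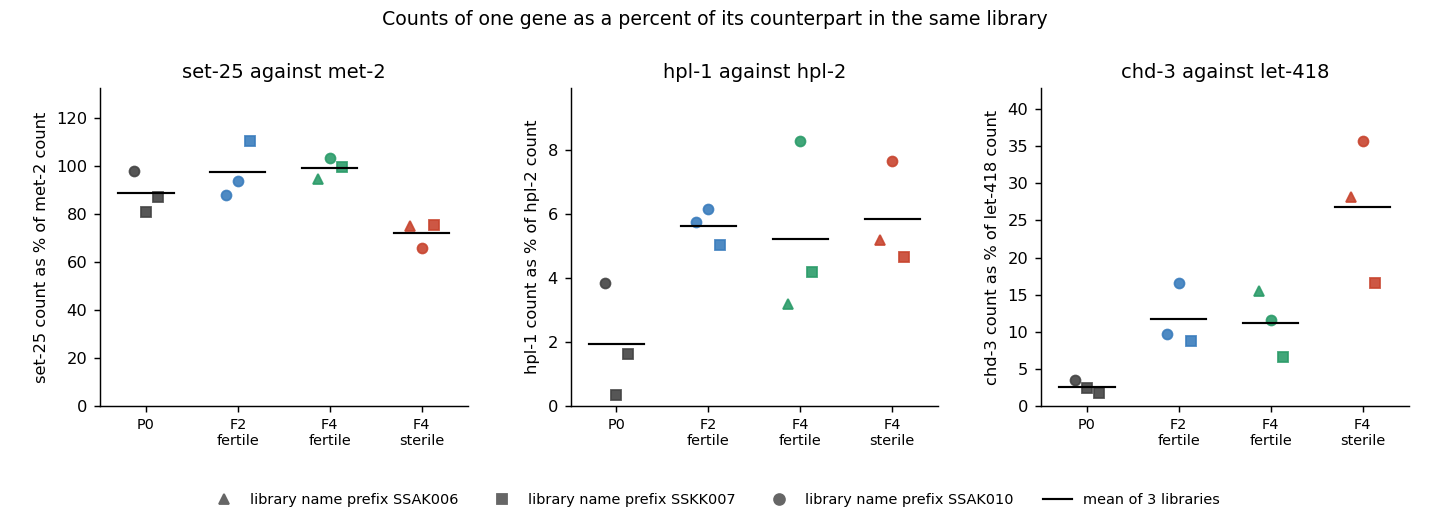
Counts of *set-25* as a percent of *met-2*, of *hpl-1* as a percent of *hpl-2*, and of *chd-3* as a percent of *let-418*, in each library by group, with symbols for library name prefixes and a line for the mean of 3 libraries. The *chd-3* share was 16.6% to 35.7% in F4 sterile and 1.72% to 3.40% in P0 libraries, while the *set-25* share was lowest in F4 sterile libraries.

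*chd-3* is the other worm Mi-2 gene, X-linked, and was compared with *let-418* after its values had been seen. It had 23.3, 17.3 and 11.99 CPM in P0 libraries, 63.4, 110 and 58.2 CPM in F2 fertile, 93.0, 67.5 and 42.5 CPM in F4 fertile, and 160, 223 and 98.0 CPM in F4 sterile libraries. All homozygous libraries lay above P0, and the gene rose 4.31-fold in F2 fertile, 3.78-fold in F4 fertile gonads and 8.95-fold in F4 sterile gonads (adjusted p = 0.00394, 0.0036 and 3.67e-05 in edgeR). Ranges above P0 were found for 29.7% of all genes tested in F4 sterile gonads, 25.4% in F4 fertile and 21.1% in F2 fertile gonads. Of the X-linked genes tested, 73.8% were called higher than P0 in F4 sterile gonads, 43.2% in F4 fertile and 30.3% in F2 fertile gonads. In F4 sterile relative to F4 fertile gonads *chd-3* was 2.37-fold higher in level and just missed the threshold (log2 fold change 1.24 ± 0.33, adjusted p = 0.0558 in edgeR). Its F4 sterile range lay above the F4 fertile one, as it did for 14.2% of all genes tested. The gene was called with the replicate number as a block (0.00945), with the prefix covariate (0.00103), in DESeq2 (0.0483), and without F4 sterile replicate 1 (0.0356) or replicate 3 (0.0406). It was not called, among others, with only the 6 samples compared (adjusted p = 0.165) or without F4 fertile replicate 2 (0.143), F4 fertile replicate 3 (log2 fold change 0.96, 0.191) or F4 sterile replicate 2 (0.89, 0.291). Its counts were 28.2%, 35.7% and 16.6% of those of *let-418* in F4 sterile libraries, against 3.40%, 2.43% and 1.72% in P0. Only uniquely mapped reads had been counted, so reads that fit both Mi-2 genes, or both HP1 genes, were not counted for either, and how many there were was not tested.

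A wider list held 32 other genes linked to H3K9 methylation, its readers and nuclear RNAi, of which 29 could be tested. In F2 fertile gonads 3 of the 29 were called relative to P0, all of them higher, in F4 fertile gonads 7 rose and 5 fell, and in F4 sterile gonads 9 rose and 4 fell. Among all genes tested 7.60% were higher and 1.33% lower in F2 fertile, 13.7% higher and 7.42% lower in F4 fertile, and 26.4% higher and 16.8% lower in F4 sterile gonads, so the F4 sterile counts of the list were near the background. The median log2 fold change of the 29 was -0.01, 0.08 and 0.03, against 0.04, 0.04 and 0.06 over all genes. All 4 of its X-linked genes (*set-6*, *set-20*, *chd-3* and *nrde-3*) rose in F4 fertile and F4 sterile gonads, and 3 of them, all but *set-20*, rose in F2 fertile gonads, where 43.2% (F4 fertile), 73.8% (F4 sterile) and 30.3% (F2 fertile) of all X-linked genes tested were called higher. Among its 25 autosomal genes tested, 3 rose and 5 fell in F4 fertile, and 5 rose and 4 fell in F4 sterile gonads. Over all autosomal genes tested 9.97% were higher and 8.23% lower in F4 fertile, and 20.5% higher and 18.8% lower in F4 sterile gonads.

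By role, both genes for partners of MET-2 stayed near P0, with log2 fold changes in F4 sterile gonads of -0.02 ± 0.08 for *lin-65* and 0.01 ± 0.10 for *arle-14*, and neither was called. Of the 4 other SET domain genes tested, 3 rose in F4 sterile gonads. These were *set-6* (13.2 ± 4.58 CPM in F4 sterile against 1.11 ± 0.768 CPM in P0, SD, n = 3), *set-15* (11.4 ± 1.41 against 4.67 ± 0.992 CPM) and *set-20* (6.99 ± 1.53 against 2.76 ± 0.168 CPM), all at low levels. Of the 6 chromodomain genes *cec-1* (18.6 ± 4.95 against 3.78 ± 1.94 CPM) and *cec-5* (184 ± 3.12 against 158 ± 7.41 CPM) rose in F4 sterile gonads. *cec-6*, whose product binds methylated H3K9 in the germline, fell in F4 fertile (166 ± 1.87 CPM) and F4 sterile gonads (158 ± 4.81 CPM), against 204 ± 9.0 CPM in P0. The JmjC demethylase genes *jmjd-1.2* (log2 fold change 0.03 ± 0.08) and *jmjd-2* (-0.23 ± 0.11) did not pass in F4 sterile gonads.

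**Figure D5:**
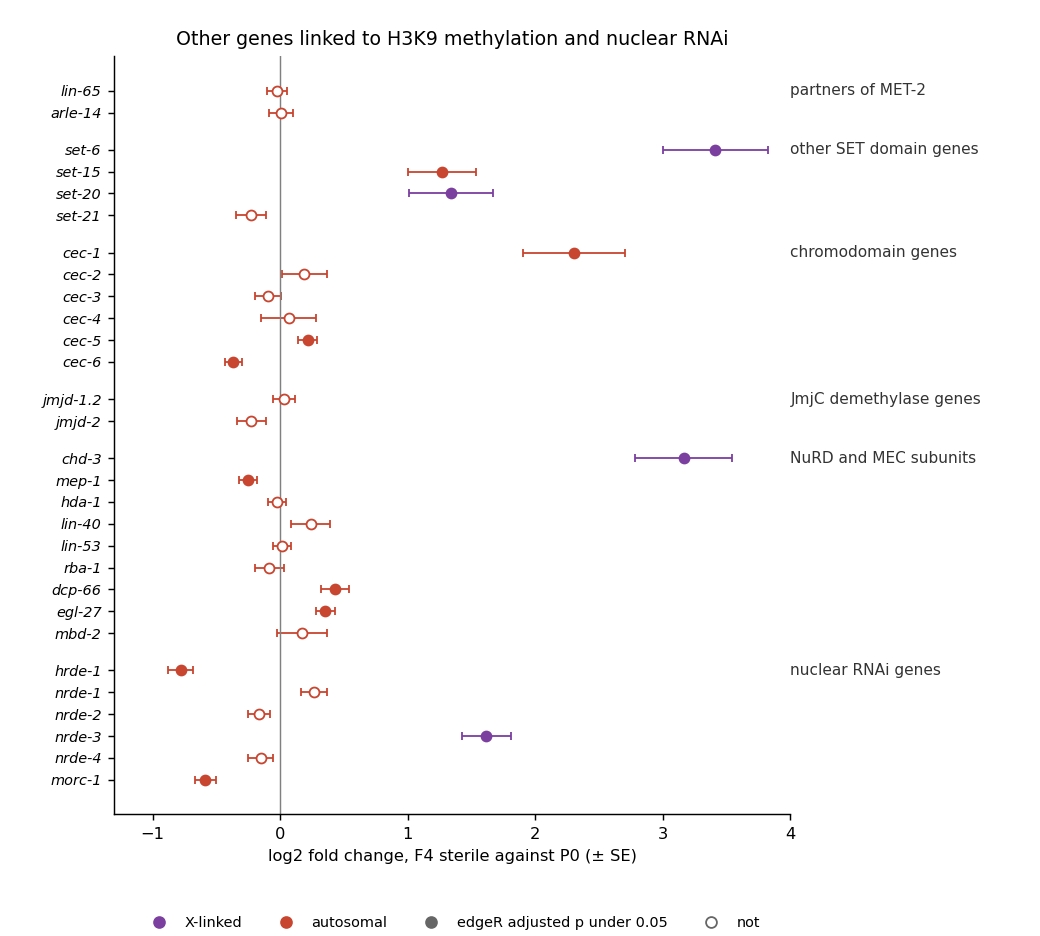
Log2 fold change, F4 sterile against P0, of the 29 tested genes of the wider list by role, with bars of 1 SE from the edgeR fit, filled where the adjusted p was under 0.05 and purple where X-linked. The 4 X-linked genes are all filled and lie between 1.34 and 3.41, and *hrde-1* is lowest at -0.78.

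LET-418 works in the NuRD complex and in the MEC complex with the zinc finger protein MEP-1. Of the 9 other subunit genes of these complexes, *mep-1* fell in F4 fertile (389 ± 9.71 CPM) and F4 sterile gonads (383 ± 16.3 CPM), against 456 ± 16.1 CPM in P0, in the same direction as *let-418*. *egl-27*, an MTA-like subunit, rose in both F4 groups and *dcp-66*, a p66-like subunit, rose in F4 sterile gonads (151 ± 10.4 against 112 ± 8.92 CPM in P0). The deacetylase gene *hda-1* (-0.02 ± 0.07) and the histone chaperone gene *lin-53* (0.01 ± 0.07) did not pass in F4 sterile gonads. The nuclear RNAi genes moved both ways. *hrde-1*, the germline nuclear Argonaute gene, was at 2064, 1955 and 1960 CPM in P0, 1416, 1589 and 1662 CPM in F4 fertile and 1246, 1038 and 1195 CPM in F4 sterile libraries. It fell in F4 fertile and F4 sterile gonads relative to P0 (log2 fold changes -0.36 and -0.78, adjusted p = 0.0224 and 6.25e-05 in edgeR). It also fell in F4 sterile relative to F4 fertile gonads (log2 fold change -0.42, adjusted p = 0.041), where it was the 1 gene of the wider list to be called, and this call was kept in 5 of the 12 fits that left out a library. The *chd-3* value of that comparison, given above, passed in some other settings and not in others. *morc-1*, an ATPase gene acting downstream of nuclear RNAi, fell in F4 sterile gonads as well (183 ± 11.1 against 275.5 ± 10.6 CPM in P0). *nrde-3*, the somatic nuclear Argonaute gene, rose 3.07-fold in F4 sterile gonads (63.3 ± 7.49 against 20.3 ± 5.11 CPM in P0).

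All differences of called wider genes within library name prefixes had the direction of the fit, 26 of 26 for F4 sterile and 24 of 24 for F4 fertile gonads against P0. The F4 ranges of these genes did not overlap with P0. Any difference within a prefix thus had to take that direction, and these counts are no check on the prefixes. The same holds for the direction of the within-prefix differences given above for called comparisons of the 8 genes, whose ranges did not overlap either. *hrde-1* and *morc-1* fell in both F4 groups relative to P0, in which germ cell markers fell too, and F4 sterile gonads, where 9 of the list rose, also had higher neuronal markers, and the part of these markers was not tested. *hrde-1*, *morc-1* and *cec-1* are on chromosome III, where the balancer and the loss of SET-2 cannot be told apart in comparisons with P0. The *cec-5* call in F4 sterile gonads was the least stable, being kept in 3 of 12 fits that left out a library and in 3 of the 6 other settings, and several of the F4 fertile calls (*set-15*, *set-20*, *egl-27*, *mep-1* and *nrde-2*) were kept in 5 to 8 of the 12.

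Across the 12 libraries the 8 genes did not follow a single pattern. As a description, Pearson's r of log2(CPM + 1) was highest within the group for *met-2* and *let-418* (0.70) and for *set-32* and *met-2* (0.67), and it was lowest for *hpl-1* and *met-2* (-0.87). The member most like *set-25* was *let-418* (0.62), while the closest members to *hpl-2* and *hpl-1* were *set-25* (0.14) and *hpl-2* (-0.05). Among all tested genes the closest to *set-25* was *nxf-1* (0.96), to *met-2* *kin-31* (0.96), to *let-418* *math-48* (0.98) and to *hpl-1* *pat-12* (0.95). These values share the libraries and their scaling, and they come from the largest of many pairs.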

How the data were processed

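Gonad RNA of 12 samples (4 groups of 3) was analysed. The authors depleted ribosomal RNA, mapped reads to WS220 with TopHat2, kept unique reads, removed reads on ribosomal RNA and deposited HTSeq counts per gene. Versions and strand setting are not given in the sources used here. Rows that name no gene were left out, of which reads on no feature were 8.23% to 14.4% and ambiguous reads 1.77% to 2.24%. The deposited table of the whole series holds normalized signal per gene (counts divided by DESeq2 size factors by the authors), with gene positions (other) and a strand score as deposited. It also holds the authors' fold changes and adjusted p-values for 5 comparisons, which were not used.

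The counts were tested with edgeR 4.0.16 (R 4.3.3), using quasi-likelihood, TMM, filterByExpr, all 12 samples in 1 fit and Benjamini-Hochberg adjustment over 8746 genes. The threshold was 0.05 and the SE was the log2 fold change divided by the root of F. The fit was tested on simulated data. Alternatives were RLE factors, DESeq2 1.42.0, no filter, only the 6 samples compared, a replicate block, the library name prefix as covariate, and leaving out each library. Differences within library name prefixes (mean log2(CPM + 1), no test) were added after seeing the data. Exact permutation tests used log2 of counts + 0.5. Chi-square per gene between libraries of a group was 3.45 to 38.5, so each library counted as 1 replicate.

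Named genes were the 8 members, *set-2*, and the genes of the wider list that passed a comparison with P0. Genes named beside them are the overlapping gene of *set-25*, some wider genes that were not called (chosen after their values were seen), and, for each of 4 members, the gene most like it in pattern. Members and lists were chosen with earlier results of these data known. Exon lengths came from WBcel235. No sequence is shown.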

Additional observations from a re-analysis of the deposited data

Results flagged for a closer look

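The change of *set-25* against P0 differed between groups. P0 cancels in such a difference, so these are the same comparisons of F4 sterile with F4 fertile and F2 fertile gonads given above, and not a second test. The F4 sterile change was lower than the F4 fertile change by a log2 difference of -0.382 (adjusted p = 0.0318 in edgeR, lower in F4 sterile in 3 of 3 libraries), and lower than the F2 fertile change by -0.45 (adjusted p = 0.00431, 3 of 3 libraries). The first was not called when F4 fertile replicate 1, 2 or 3 or F4 sterile replicate 2 was left out (adjusted p of 0.067 to 0.143) or with only the 6 samples compared (adjusted p = 0.142). No other of the 8 genes passed either comparison. The oocyte markers had median log2 fold changes of -0.38 relative to F4 fertile and -0.38 relative to F2 fertile gonads in the same comparisons, and of 0.06 in F4 fertile and 0.04 in F2 fertile gonads relative to P0. The germ cell markers had medians of -0.19 relative to F4 fertile and -0.34 relative to F2 fertile gonads, and of -0.34 in F4 fertile gonads relative to P0 (5 of 8 lower). The part of either list was not tested.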

How the results depend on the processing

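Of 864 refits of the 8 genes (8 genes, 6 comparisons, 18 settings), 816 had the same outcome, called or not, 26 lost the call, 22 gained it and 0 reversed a called direction. Most refits were of comparisons that the main fit did not call, and only the few called ones could lose a call. Of the 12 fits leaving out a library, 6 kept it for *met-2* (F4 fertile) and *hpl-1* (F4 sterile). For *set-25* in F4 sterile against F4 fertile 8 kept it, and for the other called comparisons 10 to 12 did. Another 68 changed sign where neither fit called the gene. The number of the 8 called in F4 fertile against P0 was 2, but 1 without the filter on low counts, 1 with the replicate block and 4 in DESeq2; in F4 sterile against P0 it was 3, but 1 with only the 6 samples; in F4 sterile against F4 fertile it was 1, but 0 with only the 6 samples. Leaving out a library gave 0 to 1 (F2 fertile against P0), 0 to 3 (F4 fertile), 1 to 5 (F4 sterile) and 0 to 1 (F4 sterile against F4 fertile). With the replicate number as a block, *met-2* in F4 fertile gonads (-0.24, adjusted p = 0.0525 in edgeR) was the only one of the 8 genes whose call changed. Of the wider list *chd-3* in F4 sterile against F4 fertile gained the call (1.23, 0.00945). Wider list calls in F4 fertile against P0 went from 12 (7 higher, 5 lower) to 13 (7 higher, 6 lower) with this block. The labels say that each lineage gave 1 sample per group but do not tie numbers to lineages, and deviations of same-numbered samples correlated by over 0.1 in 7 of 18 pairs, all 7 within a prefix and 3 of them the F4 sterile and F4 fertile pairs.

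Wider list calls in F2 fertile against P0 were 3, and 5 in DESeq2 (2 to 5 leaving out a library). In F4 fertile they were 12, and 7 without the filter (5 to 13). In F4 sterile against F4 fertile they were 1, but 4 without the filter, 0 with only the 6 samples, 2 with the replicate block, 4 with the prefix covariate and 3 in DESeq2 (0 to 3). In F4 sterile against F2 fertile they were 8, but 5 without the filter and 3 with the 6 samples (2 to 8).

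Over all genes, 781 were called in F2 fertile against P0 (311 to 1071 leaving out a library) and 1843 in F4 fertile (1012 to 2275). In F4 fertile against F2 fertile 1 was called, but 137 without the filter, 10 with the prefix covariate and 29 in DESeq2 (0 to 2). In F4 sterile against F4 fertile 287 were called, but 1007 without the filter, 0 with only the 6 samples, 603 with the replicate block, 1174 with the prefix covariate and 646 in DESeq2 (2 to 1212). In F4 sterile against F2 fertile 1664 were called, but 739 with the 6 samples and 2723 with the prefix covariate (814 to 2118). Without the filter edgeR gave all 26894 genes the spread of the trend and none of their own (an infinite prior), so those counts take no gene's own spread. Other causes were not tested. RLE factors and DESeq2 moved the median of all genes by under 0.1 on the log2 scale. Leaving out F2 fertile replicate 3 lowered fold changes of F4 sterile against P0, to which it does not belong. *met-2* moved from -0.15 to -0.25, *set-32* from -0.26 to -0.35 and *lin-13* from -0.15 to -0.24. *hpl-1* moved from 1.43 to 1.34 and *cec-5* from 0.21 to 0.12. Values without F4 fertile replicate 3 were close to these. Calls of these genes gained or lost in both fits came with this shared shift, and the part of the scaling was not tested. The count ratios kept their direction with a pseudocount of 2 and each library left out, but their size moved (0.91 to 2.64 for *hpl-1* to *hpl-2*, lowest without P0 replicate 2 and highest without P0 replicate 1). Depth limits *hpl-1*, with 1 to 75 counts per library.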

Other observations

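Of the wider list, *set-11*, *set-13* and *jmjd-1.1* were below the filter on low counts. *set-13*, a SET domain gene, averaged 0.711 CPM in F4 sterile and 0.564 CPM in F4 fertile gonads, against 0.141 CPM in P0, with no test. Among 7 sperm markers found, the summed level was 4.45 to 16.9 CPM in F4 sterile libraries, against 0.96 to 2.11 CPM in P0, where *msp-10* and *msp-31* were at 0.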
